A study of Mus musculus with 9 samples.

Results

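The cytosolic ribosomal protein genes were followed through 9 mouse livers. They were chosen by symbol, as rows of the gene table named Rpl or Rps with a number and the usual suffixes, the stalk genes Rplp0, Rplp1 and Rplp2, and Rpsa. The rule found 83 genes of 23337 in the table, 51 for proteins of the large (60S) subunit and 32 for the small (40S) subunit. Enough reads for a test were found for 76 of them, 45 large-subunit and 31 small-subunit genes, among 13141 genes tested in all. A cytosolic ribosome carries a single copy of nearly every ribosomal protein, and their mRNAs are made in nearly matched amounts. Most of these mRNAs are TOP mRNAs: they begin with a C followed by a run of pyrimidines, and the growth-control kinase complex mTORC1 sets how well they are translated. The liver exports large amounts of protein and its hepatocytes are rich in ribosomes.

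The livers came from C57BL/6 mice given a high-fat diet for 16 weeks from 6 to 8 weeks of age, and the study asks about protease-activated receptor 2 (PAR2, gene F2rl1), a cell-surface receptor that is switched on by protease cleavage. The groups, of 3 mice each, were PAR2dHep mice, which lack the receptor in hepatocytes (dHep), mice labelled as whole-body PAR2 knockouts (KO), and PAR2fl/fl controls with a floxed but intact gene (WT). All 3 groups had the same diet, so there is no lean reference here, and the Cre line behind dHep is not given in the sources used here. F2rl1 had 2, 8 and 0 reads in dHep, 71, 103 and 76 reads in the KO-labelled livers and 17, 27 and 28 reads in WT. The KO-labelled livers thus did not show lower counts of the targeted gene but higher ones (log2 fold change against WT 2.22, edgeR adjusted p = 0.00735). These are counts over the whole gene, so each direction below is that of libraries labelled KO. Depth was 18683660 to 30509242 assigned reads per library, or 18683660 to 22617238 in the KO-labelled livers and 24493607 to 25570388 in WT. Transcripts of pancreatic enzymes stood apart in dHep replicate 2 and WT replicate 1 (summed to 1994 and 520 CPM), and those of skeletal muscle in dHep replicate 2 (868 CPM). CPM gives a gene's reads in every 1e+06 of the TMM-adjusted total. The hepatocyte markers summed to 113800 to 164100 CPM in dHep, 112200 to 126400 CPM in KO-labelled livers and 102000 to 107700 CPM in WT. These sums fit the tissue label in every library. None of the 10 markers was at 0 in any library, and 9 had enough reads for a test.

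The start-site sequences of 8 members are shown to set the C or T runs near their starts beside the family's spread of responses. Rplp2, Rpl27a, Rps21 and Rps26 had among the larger differences from WT, and Rplp0, Rpl5, Rps4x and Rps3 either low or opposite ones in the KO-labelled livers. Each is the 60-base window from 40 bases before to 20 bases after the RefSeq start site (GRCm38.p6, the mm10 sequence), 5′ to 3′ on the gene's strand. Capitals mark the longest run of C or T that reaches within 20 bases of the start.
Rplp2: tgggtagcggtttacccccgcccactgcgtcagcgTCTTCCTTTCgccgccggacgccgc
Rpl27a: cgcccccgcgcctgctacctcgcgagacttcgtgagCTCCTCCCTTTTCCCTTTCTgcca
Rplp0: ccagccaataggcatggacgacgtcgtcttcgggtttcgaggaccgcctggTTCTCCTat
Rpl5: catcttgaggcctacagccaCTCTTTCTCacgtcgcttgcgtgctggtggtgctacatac
Rps21: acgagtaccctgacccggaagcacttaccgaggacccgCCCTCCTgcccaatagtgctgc
Rps26: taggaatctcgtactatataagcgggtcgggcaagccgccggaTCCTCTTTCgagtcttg
Rps4x: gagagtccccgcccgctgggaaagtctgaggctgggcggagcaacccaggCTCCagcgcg
Rps3: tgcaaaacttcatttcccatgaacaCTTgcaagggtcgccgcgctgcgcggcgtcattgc
The windows lie at chr7:141447611-141447670 (plus strand) for Rplp2, chr7:109519155-109519214 (plus strand) for Rpl27a, chr5:115559427-115559486 (plus strand) for Rplp0 and chr5:107900488-107900547 (plus strand) for Rpl5. Those of the small-subunit genes lie at chr2:180257339-180257398 (plus strand) for Rps21, chr10:128626487-128626546 (minus strand) for Rps26, chrX:102189372-102189431 (minus strand) for Rps4x and chr7:99483690-99483749 (minus strand) for Rps3. RefSeq promoters were matched for 63 of the 83 members, and for 27025 genes in all. A C or T run of at least 8 bases within 20 bases of the start was present in 44.4% of member promoters and 15.9% of all promoters, and the median longest run was 7 and 5 bases. Rpl27a has the longest of the 8 shown, with 20 bases, and Rps3 the shortest, with 3 bases. Within the 300-base promoters, on either strand, the letters CCGGAAG occurred in 39.7% of member promoters and 9.12% of all promoters. CTTTCC occurred in 47.6% of member promoters and 26.3% of all promoters. CTTTCC can itself lie within a C or T run, so these counts overlap. A RefSeq start is an annotated position, and where transcription began in these livers was not measured. The Rps4x gene whose reads were counted spans chrX:102184943-102188371 on the minus strand, so the Rps4x window shown does not sit at its start.

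Within the family, levels were compared per length, in TPM (reads per base of gene length, scaled to 1e+06 in each library), averaged over the 9 libraries. In the large subunit the highest levels were those of Rpl10 (916 TPM), a late-joining protein, Rpl4 (738 TPM), which lines the peptide exit tunnel, and Rpl32 (667 TPM). The lowest tested were Rpl7l1 (56.7 TPM), Rpl15 (75.6 TPM) and Rpl22 (104 TPM). In the small subunit Rps18 (943 TPM) and Rps29 (646 TPM) were among the highest, and Rps15a (42.7 TPM), Rps10 (185 TPM) and Rps6 (190.3 TPM), the S6 kinase substrate, lowest. The table gives Rps15a 5134 bases, the greatest length of the tested members, against 327 bases for Rps28, the shortest. These levels depend on how reads were assigned. Ribosomal protein genes have many processed pseudogenes with near-identical sequence, and per the file headers the counting did not use an option for reads that map to several places. The share of a gene's 50-base stretches found in another gene's annotated transcript ran from 0% to 93.8% in Rpl5 and 93.3% in Rpl9 among the tested members. Each level is therefore uncertain where that share is high.

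Of the 7 members left without a test, Rpl26 and Rpl10l had no read in any library. Rpl30 had at most 3 reads, Rpl34 1 to 5 and Rps27 1 to 7 reads per library, although these are core proteins of the ribosome. Of their 50-base stretches, 71.3% were shared for Rpl26, 76.4% for Rpl30, 51.1% for Rps27 and 0.191% for Rpl34. The tissue-restricted copies were as low. Rpl39l had 1 read in WT replicate 3 and none elsewhere, and Rpl10l is a testis-specific copy of Rpl10 in mouse. Rpl3l, the copy of Rpl3 used in striated muscle, had 8, 69 and 1 reads in dHep, 2, 5 and 6 reads in the KO-labelled livers and 1, 1 and 6 reads in WT. The 69 reads were in dHep replicate 2, the library that also held skeletal muscle transcripts.

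Ribosomal protein mRNA took a larger part of all assigned reads in dHep and in the KO-labelled livers than in WT, for both subunits. The large-subunit genes held 0.798%, 0.701% and 0.758% of reads in dHep, 0.718%, 0.860% and 0.753% in KO-labelled livers, and 0.579%, 0.574% and 0.584% in WT. The small-subunit genes held 0.584%, 0.504% and 0.543% in dHep, 0.513%, 0.632% and 0.539% in KO-labelled livers, and 0.400%, 0.388% and 0.400% in WT. No dHep or KO-labelled library overlapped WT in either share. Wilson 95% intervals of these shares were at most 0.00784 percentage points wide, which covers counting error only. The WT livers lay close together, with SDs of 0.00496 and 0.00707 percentage points for the large and small subunit. The SDs were 0.0486 and 0.0402 in dHep and 0.0740 and 0.0626 in the KO-labelled livers (n = 3 each). The ratio of large-subunit to small-subunit reads was 1.37 to 1.40 in dHep, 1.36 to 1.40 in KO-labelled livers and 1.45 to 1.48 in WT, so small-subunit reads gained more, and again no library overlapped WT. Per length the step was smaller: members made up 2.97% to 3.30% of all TPM in dHep, 2.97% to 3.48% in KO-labelled livers and 2.46% to 2.51% in WT. In RNA of a whole liver, a smaller number of some cell type and a lower RNA content of its cells cannot be told apart.

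**Figure D1:**
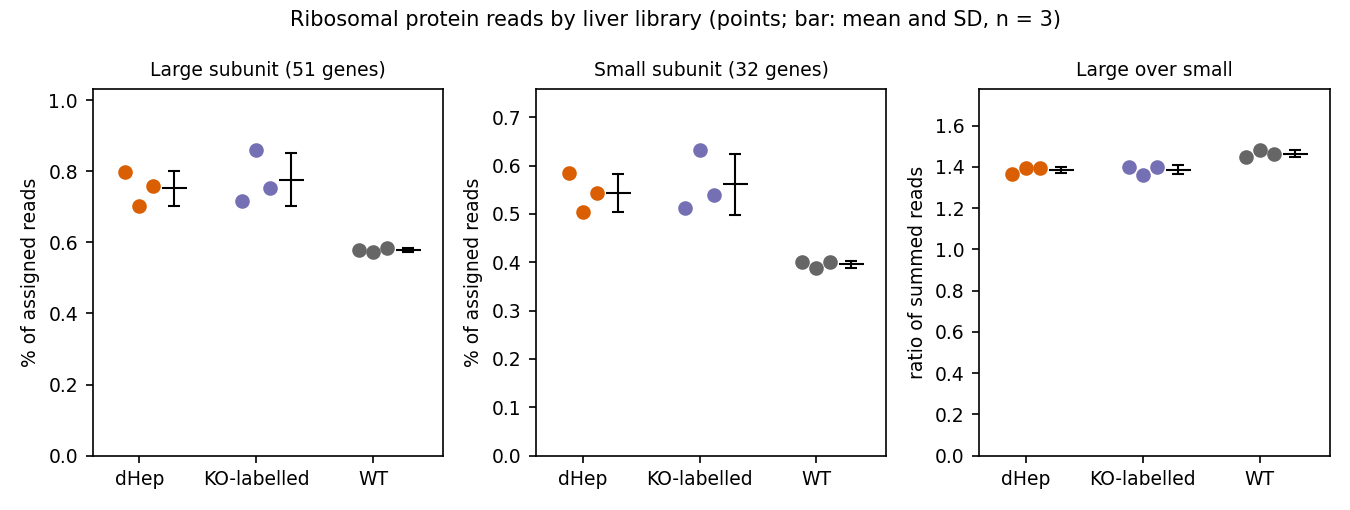
Reads of large-subunit genes (left) and small-subunit genes (middle) as a percentage of all assigned reads, and their ratio (right), in each liver library; points are libraries, and bars the mean and SD of 3. In both left panels all 6 dHep and KO-labelled points lie above the WT points, and in the ratio all lie below them.

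The comparison of dHep with WT asks how loss of PAR2 in hepatocytes changes liver mRNA under the diet. Of 45 large-subunit genes tested, 41 rose, with a median log2 fold change of 0.58 over all 45, and of 31 small-subunit genes 31 rose, with a median of 0.71. No member had a negative value, and the 4 uncalled genes, all large-subunit, had positive values too. Among all 13141 genes the median was 0.02 and 12.4% were called higher by edgeR at an adjusted p under 0.05. In 76 of 76 members the lowest dHep library was above the highest WT library in CPM, against 20.8% of all genes. Per length, in TPM, this held for 32 of 45 large-subunit and 24 of 31 small-subunit genes, and the share of all genes was not computed. Short genes outside the family were also called higher more often than long ones. A length trend was fitted on the other genes and removed, an alternative chosen after the data were seen. With it removed, 22 large-subunit and 20 small-subunit genes rose, with medians of 0.26 and 0.34. Over all 13141 genes, 1534 were then called higher and 1548 lower. With library totals in place of TMM factors, which put the median of all genes at -0.15, 28 and 21 rose. Without dHep replicate 2 and WT replicate 1 together 34 and 25 rose. Over all genes, 775 were called higher with library totals and 1399 without those libraries.

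In the large subunit of dHep livers, the largest rise was that of Rpl36, which had 26.2, 27.9 and 43.9 CPM in dHep and 11, 10.6 and 9.8 CPM in WT. No dHep value overlapped WT, and the fold was 3.12 (log2 fold change 1.64 ± 0.24, SE; edgeR adjusted p = 0.00212). The acidic stalk genes, whose proteins bind the GTPase factors of translation, came next. Rplp1 had 118, 129 and 218 CPM in dHep and 64, 60.9 and 59.4 CPM in WT, a 2.53-fold rise (1.34 ± 0.22, edgeR adjusted p = 0.00388), with dHep replicate 3 well above the other two. Rplp2 had 42.2, 51 and 74 CPM in dHep and 26.4, 25.8 and 25.4 CPM in WT, also highest in dHep replicate 3, and rose by 1.10 ± 0.21 (edgeR adjusted p = 0.00658). By p the leading genes were Rpl3, a protein of the peptidyl transferase region, and Rpl37. Rpl3 had 269.8, 294 and 278 CPM in dHep and 175, 179 and 176 CPM in WT (0.67 ± 0.09, edgeR adjusted p = 0.00152), and Rpl37 had 112, 107 and 132 CPM in dHep and 64.3, 61.5 and 64.6 CPM in WT (0.88 ± 0.12, edgeR adjusted p = 0.00152). Rpl37a followed, with a log2 fold change of 0.74 ± 0.11 (edgeR adjusted p = 0.0021). Rpl5 and Rpl11 form the particle with 5S rRNA that also binds the p53 regulator MDM2, and both rose, by 0.40 ± 0.09 (edgeR adjusted p = 0.00994) and 0.62 ± 0.10 (edgeR adjusted p = 0.00354) on the log2 scale. Rpl13a, also part of a translation-silencing complex in human myeloid cells, rose by 0.78 ± 0.13 (edgeR adjusted p = 0.00369).

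At the low end of the large subunit in dHep, the 4 genes that did not pass were Rpl7l1 (0.17 ± 0.09), Rpl39 (0.32 ± 0.12), Rpl21 (0.33 ± 0.11) and Rpl23 (0.39 ± 0.13), with edgeR adjusted p of 0.216, 0.075, 0.0593 and 0.0512. Rpl10 and Rpl4 passed with 0.36 ± 0.10 and 0.35 ± 0.11, and Rpl41, the smallest ribosomal protein, with 0.51 ± 0.14. These 3 calls each ended when any 1 WT library was left out. They also ended without dHep replicate 3 or KO replicate 3 for Rpl10, and without dHep replicates 2 or 3 or any KO library for Rpl4. Rpl41 stood at 0.32 without dHep replicate 3. The call of Rpl5 ended without WT replicate 2, that of Rpl32 (0.47 ± 0.10) without WT replicate 3, and that of Rpl7 (0.44 ± 0.09) without WT replicate 2 or 3. Leaving out 1 WT library lowered the calls over all genes from 3192 to between 1359 and 1952. The large-subunit median stayed at 0.57 to 0.59 in these fits. Rpl39 passed without dHep replicate 2. With the length trend removed it had a value of -0.20, and with length and GC trends removed Rpl41 had -0.11.

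In the small subunit of dHep livers, Rps21 rose most, with 68.5, 60.5 and 82.5 CPM in dHep and 30.2, 31.9 and 28.7 CPM in WT. The groups stood far apart, by 2.33-fold (1.22 ± 0.18, edgeR adjusted p = 0.00206). Rps29, a zinc-binding protein of the small-subunit head, had 134, 136 and 179 CPM in dHep and 80.3, 70 and 73.9 CPM in WT (1.00 ± 0.14, edgeR adjusted p = 0.00169), and Rps28, which sits near the mRNA exit, had 64.5, 66.8 and 80 CPM in dHep and 37.3, 34.5 and 35.3 CPM in WT. Rps28 had the smallest p of the whole family (0.98 ± 0.11, edgeR adjusted p = 0.000705). Rps23, a protein of the decoding centre, had 178, 167 and 187 CPM in dHep and 108, 102 and 104 CPM in WT (0.76 ± 0.09, edgeR adjusted p = 0.000981), and Rps18 rose by 0.78 (edgeR adjusted p = 0.00159). Rpsa, also known as the laminin receptor precursor, had 276, 285 and 312 CPM in dHep and 182, 172 and 178 CPM in WT and rose by 0.71 (edgeR adjusted p = 0.00299). Rps6 rose by 0.64 (edgeR adjusted p = 0.00229), Rps14 by 0.71 (edgeR adjusted p = 0.0021) and Rps27a, made as a fusion with ubiquitin, by 0.60 (edgeR adjusted p = 0.00261). Rps6, Rps14 and Rps27a each lost their calls under 1 of 22 alternatives, with lowest values of 0.25, 0.23 and 0.28.

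Among the smaller differences of the small subunit in dHep were those of Rps15a (0.32 ± 0.09), Rps4x (0.36 ± 0.11), Rps19 (0.37 ± 0.10), a gene mutated in human Diamond-Blackfan anaemia, and Rps3 (0.40 ± 0.09), which lines the mRNA entry channel. Rps19 had 154, 135 and 160.5 CPM in dHep and 111, 120.5 and 115 CPM in WT, so the groups did not overlap although the difference was small. All 4 passed, and all 4 calls ended when any 1 WT library was left out. Those of Rps15a and Rps4x also ended without some dHep and KO libraries: dHep replicates 2 or 3 and KO replicate 3 for Rps15a, and dHep replicates 2 or 3 and any KO library for Rps4x. Rps10 (0.59 ± 0.16) and Rps27l (0.43 ± 0.12) lost their calls without dHep replicate 3 or any WT library. With the length trend removed, Rps19 had a value of -0.024.

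**Figure D2:**
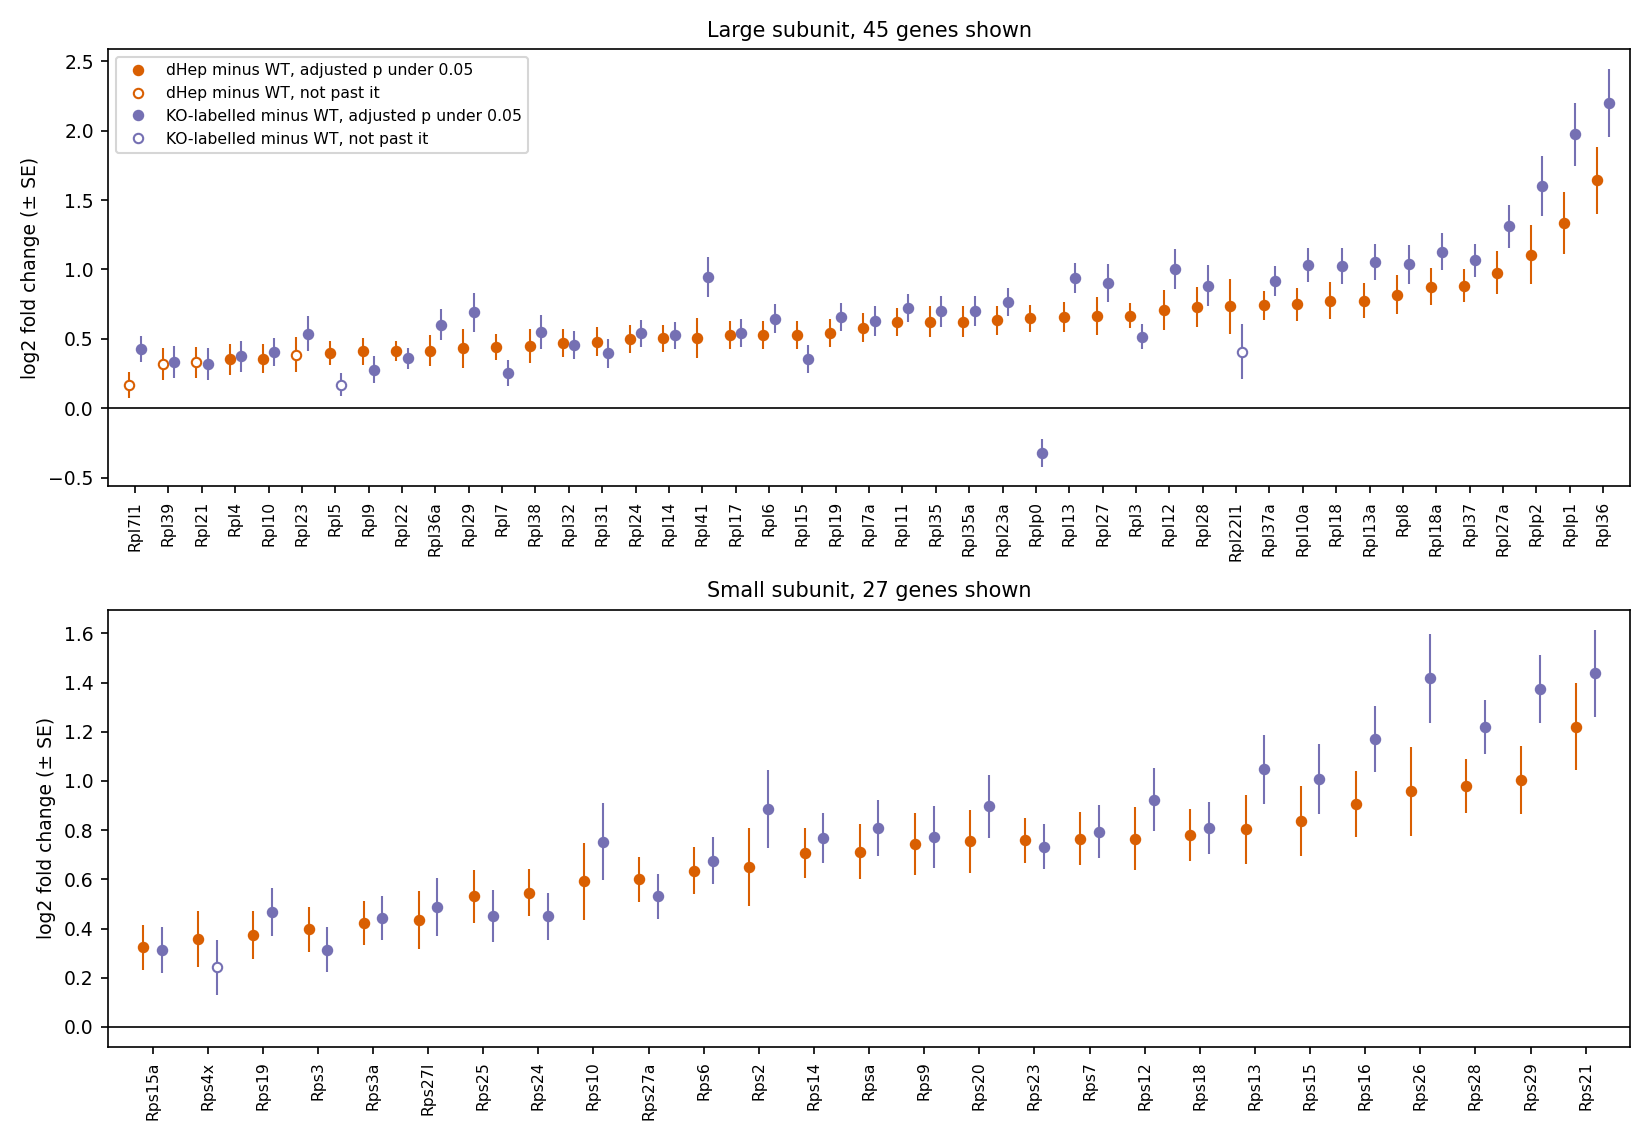
Log2 fold change against WT, with SE, of 45 large-subunit genes (top) and 27 of the 31 small-subunit genes tested (bottom; 4 are not drawn), in order of the dHep value; orange is dHep minus WT, purple KO-labelled minus WT, and filled points have an edgeR adjusted p under 0.05. Among the genes drawn Rplp0 is the 1 point below 0 (-0.32, KO-labelled minus WT), and Rpl36 is highest in both comparisons (1.64 and 2.20).

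The whole-body comparison sets the KO-labelled livers against the same WT livers. Of 45 large-subunit genes, 42 rose and 1 fell, with a median log2 fold change of 0.65, and of 31 small-subunit genes 30 rose, with a median of 0.77. The share of all genes called higher was 20.9%, and 22.1% were called lower, around a median of -0.01. In 75 members the libraries of the 2 groups did not overlap and KO-labelled livers were higher, against 32.4% of all genes, and in Rplp0 they did not overlap and were lower, as in 33.8% of all genes. With the length trend removed, 19 large-subunit genes rose and 2 fell, and 16 small-subunit genes rose (medians 0.20 and 0.27). Over all genes 2591 then rose and 2657 fell. With length and GC trends removed, 18 rose and 3 fell in the large subunit, and 13 rose and 1 fell in the small subunit (medians 0.21 and 0.16). Over all genes 2276 rose and 2500 fell in that fit. Per length, on the TPM scale, mean levels were higher than in WT for 37 of 45 large-subunit and 28 of 31 small-subunit genes in KO-labelled livers, and for 44 and 31 in dHep. On that scale KO-labelled livers were above WT without overlap in 31 large-subunit and 23 small-subunit genes, and below it in 3 and 1. The share of all genes was not computed in TPM. Both comparisons use the same 3 WT libraries, so their values are given side by side and not as independent support.

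Rpl36 was again the gene with the largest rise in KO-labelled livers, at 40.9, 63.6 and 39.5 CPM against 11, 10.6 and 9.8 CPM in WT. Every library was above WT, by 4.59-fold (log2 fold change 2.20 ± 0.24, SE; edgeR adjusted p = 0.000329). Rplp1 had 218, 292 and 213 CPM in KO-labelled livers, 3.93-fold higher than in WT (1.97 ± 0.23, edgeR adjusted p = 0.000379), with KO replicate 2 above the other two. Rplp2 had 68.3, 99.1 and 67.7 CPM, 3.03-fold higher than in WT (1.60 ± 0.21, edgeR adjusted p = 0.000675). Rpl37 (1.07, edgeR adjusted p = 0.000339), Rpl10a (1.03, edgeR adjusted p = 0.000379) and Rpl13a (1.05, edgeR adjusted p = 0.000479) rose with the smallest p after Rpl36. Rpl41 had 199, 210.2 and 179 CPM in KO-labelled livers and 100.4, 108 and 96.6 CPM in WT. Its difference from WT was 0.95 ± 0.14, against 0.51 ± 0.14 in dHep. The call against WT in KO-labelled livers ended under 1 of 22 alternatives, with a lowest value of 0.087. Set directly against dHep, the KO-labelled livers differed by 0.44 ± 0.14 for Rpl41, which did not pass (edgeR adjusted p = 0.0791). Rpl11 rose by 0.72 (edgeR adjusted p = 0.000815) and Rpl3 by 0.52 (edgeR adjusted p = 0.00203). Rpl10 rose by 0.40, and had a value of -0.055 with the length trend removed.

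The large-subunit genes that did not rise with the others in KO-labelled livers were few. Rpl5 had 216, 232 and 233 CPM in KO-labelled livers and 201, 200.1 and 205 CPM in WT, a difference of 0.17 ± 0.09 that did not pass (edgeR adjusted p = 0.129). It passed under 4 of the 22 alternatives: DESeq2 (adjusted p = 0.0492), limma voom (0.0168), edgeR on the 2 groups alone (0.046) and edgeR with the GC trend removed (0.0059). Its partner Rpl11 rose, but lost its call under 2 of the 22 alternatives, and its lowest value over the 22 was 0.056. Rpl22l1 (0.41 ± 0.20, edgeR adjusted p = 0.122) did not pass either. The difference between the 2 groups was -0.23 ± 0.09 for Rpl5 and -0.33 ± 0.20 for Rpl22l1 when KO-labelled livers were set against dHep, and neither passed (edgeR adjusted p = 0.117 and 0.298). Rpl7 (0.26), Rpl15 (0.36), Rpl39 (0.33) and Rpl4 (0.37) rose, but these calls ended without KO replicate 2 or 3, or WT replicate 2 or 3, and for Rpl7, Rpl39 and Rpl4 also without WT replicate 1. With the length trend removed Rpl32, Rpl39 and Rpl7 had values of -0.16, -0.37 and -0.14 against WT. The negative value of Rpl39 itself passed (edgeR adjusted p = 0.0146), as it did with length and GC trends removed (0.0499), so the direction of Rpl39 turned with this choice.

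Among small-subunit genes in KO-labelled livers, Rps28 had the smallest p of the family (edgeR adjusted p = 0.000171), with 77.7, 91.5 and 80.3 CPM in KO-labelled livers and 37.3, 34.5 and 35.3 CPM in WT. All KO-labelled libraries were above WT, by 1.22 ± 0.11 on the log2 scale. Rps21 had 70.7, 106 and 69.3 CPM in KO-labelled livers and 30.2, 31.9 and 28.7 CPM in WT, 2.71-fold higher than in WT (1.44, edgeR adjusted p = 0.000494). Rps26, which contacts mRNA upstream of the start codon, had 72.3, 93 and 85.5 CPM in KO-labelled livers and 32.3, 29.4 and 32.2 CPM in WT, 2.67-fold higher (1.42, edgeR adjusted p = 0.000564), and Rps29 had 176, 219.9 and 185 CPM, 2.59-fold higher (1.37, edgeR adjusted p = 0.000231). Rps16 rose by 1.17 (edgeR adjusted p = 0.000369). Rpsa rose by 0.81, Rps14 by 0.77, Rps6 by 0.68, Rps27a by 0.53 and Rps19 by 0.47, and each passed. The Rpsa call held under all 22 alternatives. Rps14 and Rps27a each lost their calls under 2 of the 22 and Rps6 under 1, with lowest values of 0.088, 0.082 and 0.060. Rps19 had -0.07 without the length trend, and without length and GC trends it was called lower than in WT (-0.48, edgeR adjusted p = 0.00655). Rps3 (0.31) and Rps15a (0.31) lost their calls without KO replicate 2 or 3 or any single WT library. Rps4x, the X-linked copy of its gene, had 274, 303 and 294 CPM in KO-labelled livers and 241, 249.8 and 245 CPM in WT and did not pass (0.24 ± 0.11, edgeR adjusted p = 0.107). Like Rpl22l1 in the same comparison, it passed under 4 of the 22 alternatives: limma voom, the 2 groups alone, dHep replicate 1 left out, and the GC trend removed.

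Rplp0, the scaffold of the stalk on which Rplp1 and Rplp2 are mounted in pairs, moved in opposite directions against WT in the 2 groups. It had 245, 283 and 284 CPM in dHep, 134, 149.8 and 131 CPM in KO-labelled livers and 179, 170.5 and 169 CPM in WT. dHep was highest, KO-labelled livers were lowest, and no 2 groups overlapped. It rose in dHep against WT (0.65 ± 0.10, edgeR adjusted p = 0.00246) and fell in the KO-labelled livers against WT (-0.32 ± 0.10, edgeR adjusted p = 0.0254). That fall ended without KO replicate 1 or 3 or any single WT library, with edgeR adjusted p of 0.0652 to 0.100, and without dHep replicate 2 and WT replicate 1 together (0.0854). Set directly against dHep, the KO-labelled livers were 1.96-fold lower (-0.97 ± 0.10, edgeR adjusted p = 0.000898), and this call held under all 22 alternatives, with values from -1.08 to -0.93. Rplp1 and Rplp2 differed the other way between these 2 groups, by 0.64 ± 0.22 and 0.49 ± 0.21, and did not pass (edgeR adjusted p = 0.0976 and 0.157). Of the 50-base stretches of Rplp0, 41.8% are shared with other annotated transcripts.

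**Figure D3:**
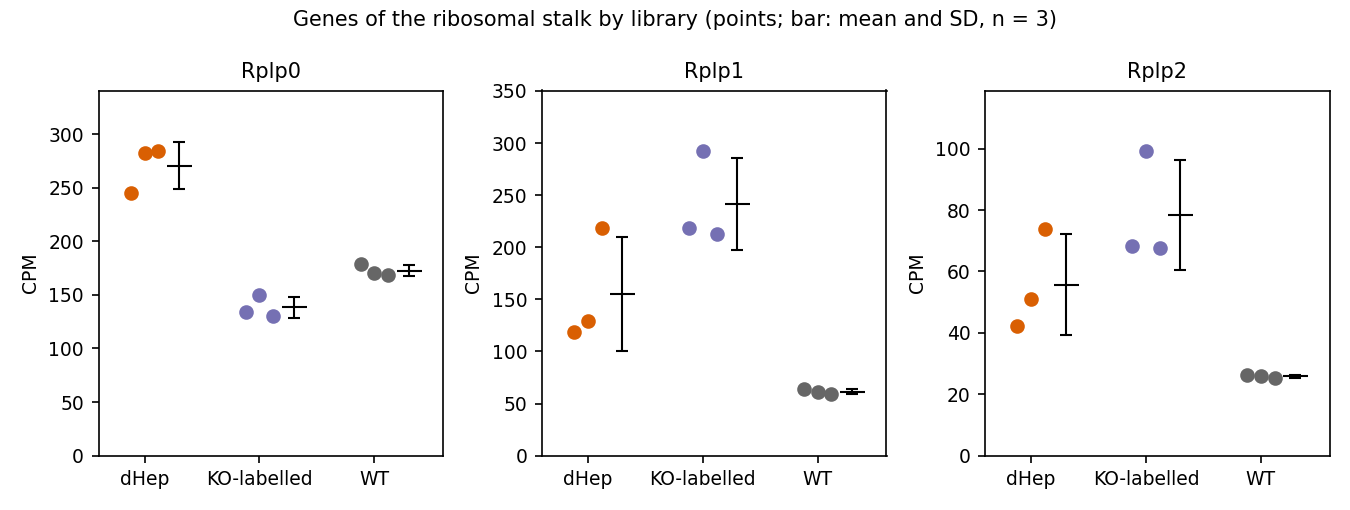
CPM of the stalk genes Rplp0, Rplp1 and Rplp2 in each library, from 0; points are libraries, and bars the mean and SD of 3. Rplp0 is lowest in the KO-labelled livers (131 to 150 CPM) and highest in dHep (245 to 284 CPM), while Rplp1 and Rplp2 are lowest in WT.

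Rplp0 was the only member that differed between the KO-labelled livers and dHep at an edgeR adjusted p under 0.05. Of all genes, 4.23% were called higher and 5.39% lower in that comparison. In the small subunit edgeR called 0 of 31 genes, DESeq2 and limma voom 0 as well, and 2 genes had an unadjusted p under 0.05. In the large subunit 9 of 45 genes did, and of all genes tested 28.4% did, a larger share than in either subunit. In the large subunit DESeq2 called 4, of which 2 were higher and 2 lower. The median difference was 0.12 in the large and 0.06 in the small subunit, and 57 of 76 members had a positive value. Every KO-labelled library was below every dHep library in 5 large-subunit genes and 12.7% of all genes, and above it in 1 large-subunit gene and 13.9% of all genes, with no small-subunit gene in either class. Without dHep replicate 3, 12 large-subunit genes were higher and 2 lower in KO-labelled livers, and 4 small-subunit genes were higher, among them Rplp1, Rplp2, Rpl36, Rps26 and Rps29. Calls over all genes increased as well, to 1313 higher and 1496 lower, where all 9 libraries gave 556 and 708. That library was the highest of its group for 66 of the 76 members. In the KO-labelled group replicate 2 was highest for 65 and replicate 1 lowest for 64, whereas in WT no replicate was highest for more than 29. The median coefficient of variation over members was 10.98% in dHep, 9.535% in KO-labelled livers and 2.654% in WT. In the large subunit the most positive values were those of Rplp1 and Rpl36 (0.56 ± 0.23), and the most negative outside Rplp0 that of Rpl22l1. In the small subunit the most positive was Rps26 (0.46 ± 0.18), and the most negative were Rps4x (-0.11 ± 0.11) and Rps24 (-0.10 ± 0.10). None of these passed.

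Gene length moved with these differences across the whole table. The tested members have a median length of 717.5 bases, against 2866 bases for the other genes. Of 861 other genes of at most 1000 bases, 31.2% were called higher in dHep than in WT and 46.1% in KO-labelled livers, with medians of 0.37 and 0.46, and 6.5% and 10.2% lower. Of those at most 1000 bases long with a mean of at least 50 CPM (181 genes), 51.4% and 60.8% were higher, with medians of 0.45 and 0.52. Of 3884 genes over 4000 bases, 4.97% and 8.34% were higher and 15.5% and 33.2% lower. Short genes outside the family took 9.78%, 7.59% and 9.88% of reads in dHep, 10.3%, 11.8% and 11.4% in KO-labelled livers, and 7.31%, 6.99% and 7.09% in WT, so only dHep replicate 2 came near WT. Among the members, 57 of 58 short genes and 15 of 18 genes over 1000 bases rose in dHep (medians 0.65 and 0.50), and 56 of 58 and 16 of 18 in KO-labelled livers (medians 0.77 and 0.41). Across the 76 members, which share libraries, Pearson's r of the difference from WT with log2 length was -0.44 in dHep and -0.47 in KO-labelled livers, and with GC content 0.40 and 0.48. These are descriptions across genes, which are not independent replicates. Length and GC content differ between members and other genes, and their part in the rise beyond the trends removed was not tested.

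**Figure D4:**
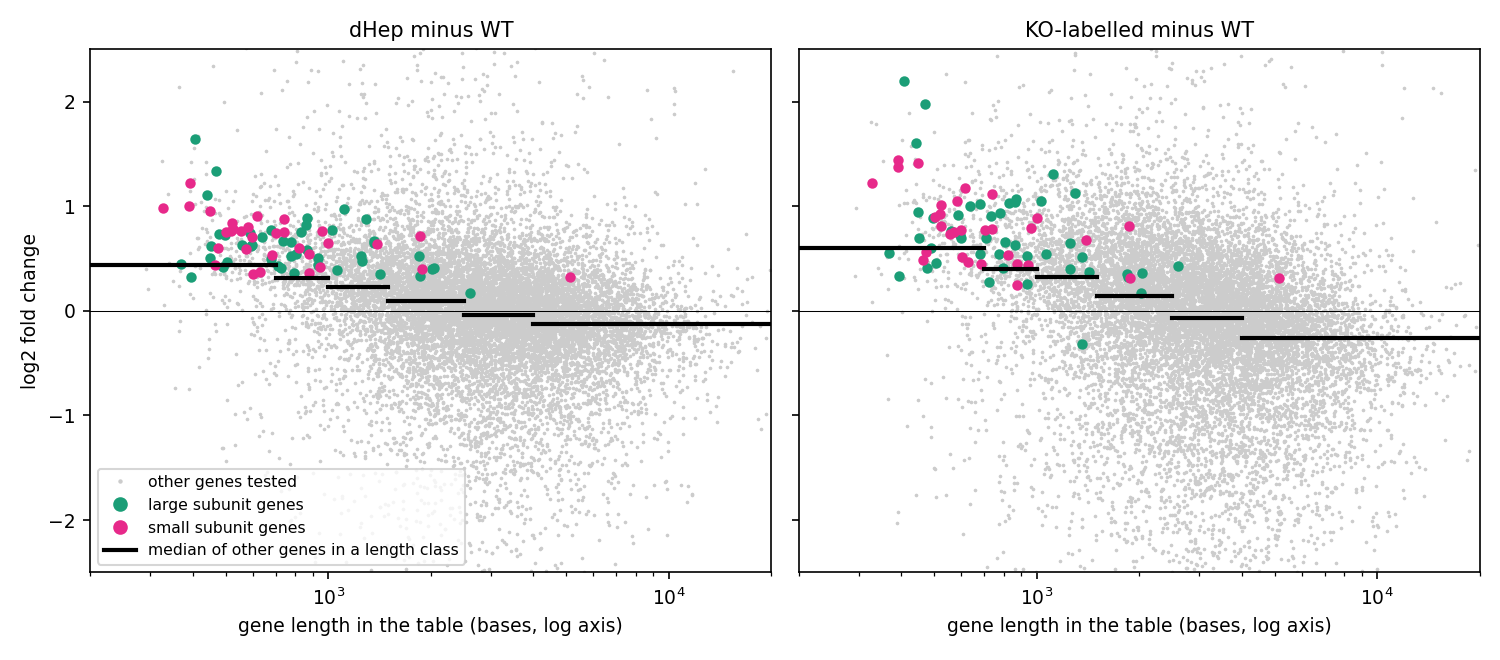
Log2 fold change against gene length (log axis) for large-subunit genes, small-subunit genes and all other genes tested, in dHep minus WT (left) and KO-labelled minus WT (right); black bars are medians of the other genes in length classes, and genes beyond the axis limits are not drawn. The medians fall from 0.44 and 0.60 in genes of at most 700 bases to -0.13 and -0.26 in genes over 4000 bases, and most members lie above the median of their length class.

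The paralogs showed levels of their own. Rpl22 and Rpl22l1 encode alternative forms of a large-subunit RNA-binding protein. Rpl22 had 126, 126 and 127 CPM in dHep, 117, 123 and 125 CPM in KO-labelled livers and 92.3, 97.6 and 94.6 CPM in WT, a rise of 0.41 ± 0.07 in dHep (edgeR adjusted p = 0.00532) and 0.36 ± 0.07 in KO-labelled livers (edgeR adjusted p = 0.00466). Rpl22l1 had 54.6, 33.5 and 30.4 CPM in dHep, 32.3, 30.6 and 31.6 CPM in KO-labelled livers and 24.7, 21.9 and 24.6 CPM in WT, with dHep replicate 1 above all others. Its dHep call (0.74 ± 0.20, edgeR adjusted p = 0.0249) ended when any 1 WT library was left out, and its value was 0.43 without dHep replicate 1. Rps27l, a p53 target in human cells, had 144, 122 and 168 CPM in dHep, 139, 155 and 157 CPM in KO-labelled livers and 107, 105 and 109.8 CPM in WT and rose by 0.49 ± 0.12 in KO-labelled livers (edgeR adjusted p = 0.00941), with a value of -0.16 once the length trend was removed. Its better known counterpart Rps27 had too few reads to compare. Rpl7l1 had 76, 80.9 and 74.1 CPM in dHep, 82.2, 98.3 and 96.3 CPM in KO-labelled livers and 67.2, 72.2 and 66.2 CPM in WT. It rose in the KO-labelled livers (0.43 ± 0.09, edgeR adjusted p = 0.00596) but did not pass in dHep. The direct difference of Rpl7l1 between KO-labelled livers and dHep, 0.26 ± 0.09, did not pass (edgeR adjusted p = 0.108). Rpl7 and Rpl7l1 differed from WT by 0.44 and 0.17 in dHep.

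Ribosomal proteins whose gene names fall outside the symbol rule were read beside the members. Fau, which encodes the small-subunit protein S30 fused to a ubiquitin-like protein, had 67.2, 73.9 and 96.3 CPM in dHep, 81.3, 105 and 78.5 CPM in KO-labelled livers and 34.3, 35 and 33.1 CPM in WT. It rose by 1.21 ± 0.15 in dHep (edgeR adjusted p = 0.00119) and by 1.37 ± 0.15 in KO-labelled livers (edgeR adjusted p = 0.00035). Gnb2l1, the older symbol for the 40S scaffold protein RACK1, rose by 0.63 in dHep (edgeR adjusted p = 0.00274) and 0.71 in KO-labelled livers (edgeR adjusted p = 0.000747). Rpl36al, a copy of Rpl36a, had 0.29 ± 0.12 in dHep, which did not pass (edgeR adjusted p = 0.102), and rose by 0.73 ± 0.12 in KO-labelled livers (edgeR adjusted p = 0.00146). With length and GC trends removed, Rpl36al had a value of -0.14 in dHep.

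Genes that build or use ribosomes were followed as 7 lists, beside 12.4% of all genes called higher and 11.9% lower in dHep. In dHep against WT, 8 of 36 initiation factors rose and 3 fell (median 0.11), with rises in the initiation complex genes Eif3i (0.50, edgeR adjusted p = 0.00413) and Eif3h (0.48) and a fall in Eif4g3 (-0.65). Of 14 elongation and termination factors 5 rose (median 0.27), led by Dohh (0.88), which completes the hypusine of eIF5A, and Eef1b2 (0.49). Of 41 genes of small-subunit rRNA processing 7 rose and 1 fell (median 0.18), with a rise in the rRNA methyltransferase gene Emg1 (0.79, edgeR adjusted p = 0.00123) and a fall in Utp20 (-0.52). Of 43 large-subunit assembly genes 2 rose, Rpf1 (0.44) and Ppan (0.78), and 3 fell, among them Gnl3l (-0.58) and Nvl (-0.31), around a median of 0.21. Of 20 genes of RNA polymerase I and its factors 4 rose, among them the subunit genes Polr1c (0.44) and Polr1d (0.45). Of 30 genes of mTORC1, MYC and TOP mRNA control 5 rose and 3 fell (median 0.03). In that list Mtor itself fell (-0.93 ± 0.10, edgeR adjusted p = 0.000496), as did its partner Mlst8 (-0.62), and the S6 kinase gene Rps6kb2 (0.66) and the translation repressor gene Eif4ebp3 (2.17) rose. Of 22 nascent chain, SRP and translocon genes 4 rose and 1 fell (median 0.17), with rises in Naca (0.51) and Ssr4 (0.59) and a fall in Ssr3 (-0.37). The calls of Rpf1, Polr1d and Utp20 ended without WT replicate 2 or 3, those of Nvl and Ssr3 when any 1 WT library was left out, that of Eif3h without WT replicate 2, that of Eif4ebp3 without WT replicate 2 or 3 and that of Rps6kb2 without WT replicate 3. Ppan lost its call without dHep replicates 2 or 3, KO replicate 3 or any WT library.

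In the KO-labelled livers against WT 20.9% of all genes were called higher and 22.1% lower, and the lists are read against these shares. Of 43 large-subunit assembly genes 25 rose and 2 fell (median 0.40), with rises in Ppan (1.59, edgeR adjusted p = 0.000898) and Bop1 (0.67), and falls in Nsa2 (-0.98, edgeR adjusted p = 0.000148) and Gnl3l (-0.41). Nsa2, a factor of 60S maturation, also stood lower in KO-labelled livers than in dHep (-1.12, edgeR adjusted p = 0.000191). Of 41 small-subunit rRNA processing genes 19 rose and 1 fell (median 0.30), with rises in Emg1 (0.97) and Noc4l (0.82). Of 22 nascent chain, SRP and translocon genes 13 rose (median 0.45), led by Ssr4 (0.83) and the channel gene Sec61a1 (0.65, edgeR adjusted p = 0.000871). Of 36 initiation factors 15 rose and 2 fell (median 0.21), with Eif2b2 (0.82) and Eif3g (0.88) higher. Of 14 elongation and termination factors 6 rose and 2 fell (median 0.36): Dohh rose (1.25) and Dhps, the enzyme before it in hypusine synthesis, fell (-0.82, edgeR adjusted p = 0.0036). Of 20 genes of RNA polymerase I and its factors 8 rose, among them Polr1c (0.60), and of 30 genes of mTORC1, MYC and TOP control 8 rose and 4 fell, with Akt1s1 (1.09) and Rps6kb2 (0.80) higher and Rragc (-0.41) and Mtor (-0.43) lower. The Gnl3l call ended under 7 of 22 alternatives, among them without KO replicate 2 or 3 or WT replicate 1, and its weakest value was -0.042. The fall of Mtor against WT ended under 2 of the 22, with a weakest value of -0.044. Against dHep, Mtor was higher in the KO-labelled livers (0.51, edgeR adjusted p = 0.0143; not called without KO replicate 3). These lists were chosen with earlier results of these data known, and no list was tested as a list.

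**Figure D5:**
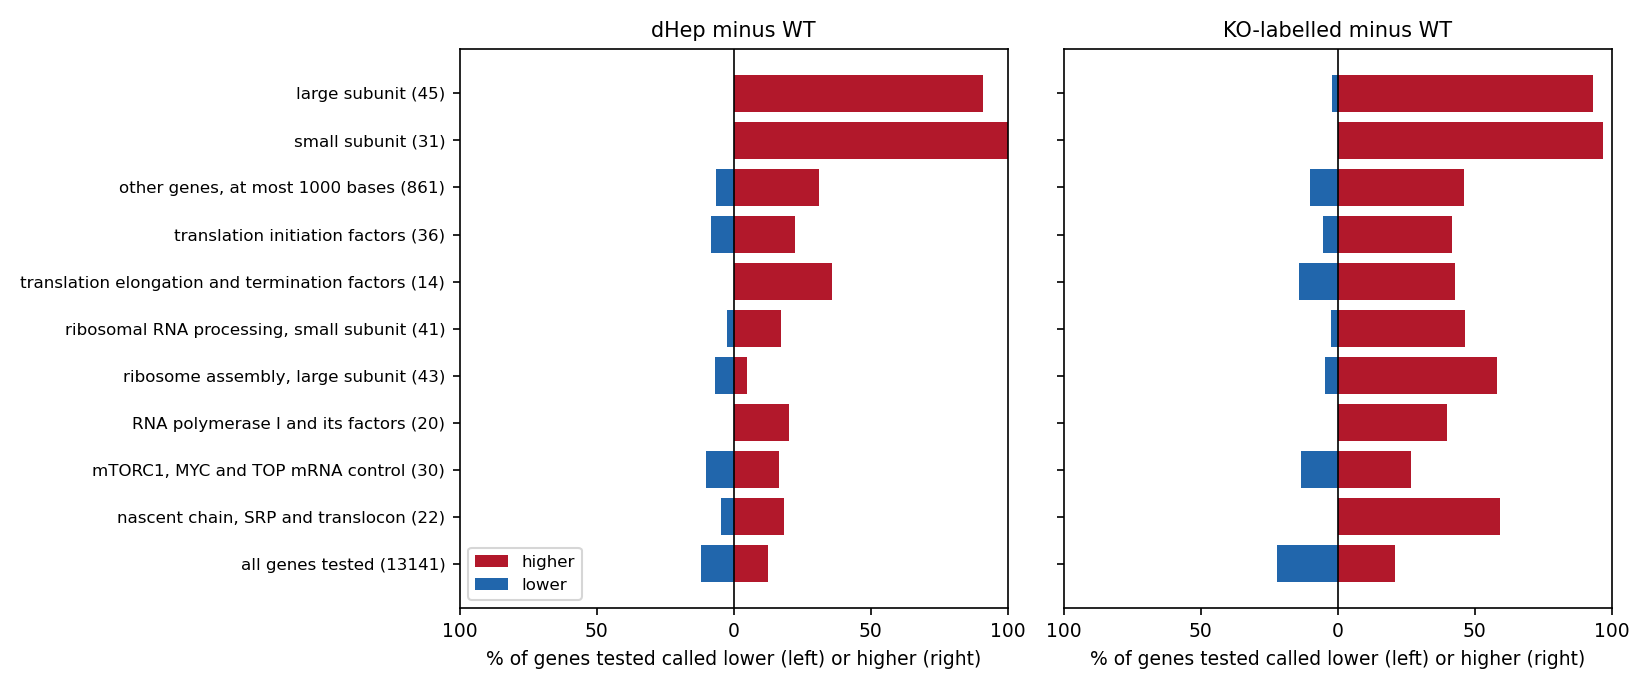
Percentage of tested genes called higher (red, right of 0) or lower (blue, left of 0) at an edgeR adjusted p under 0.05, in dHep minus WT (left) and KO-labelled minus WT (right), with the number tested in brackets. Both ribosomal subunits reach 91.1% to 100% higher in both panels, against 31.2% and 46.1% of other genes of at most 1000 bases.

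Several sets of markers of other liver cells moved with the groups as well. The 9 macrophage markers measured summed to 165 to 281 CPM in dHep, 72.1 to 133 CPM in KO-labelled livers and 313 to 377 CPM in WT, and 6 fell in dHep and 9 in the KO-labelled livers. The 9 stellate cell and fibroblast markers summed to 312 to 472 CPM in dHep, 266 to 351 CPM in KO-labelled livers and 623 to 706 CPM in WT, with 5 and 8 falls. The 6 cycling-cell markers summed to 5.57 to 7.70 CPM in dHep, 6.69 to 9.34 CPM in KO-labelled livers and 26.4 to 37.6 CPM in WT, with 5 and 6 falls. None of these macrophage, stellate or cycling markers was at 0 in any library. The 8 lymphocyte markers summed to 4.61 to 9.31 CPM in dHep, 2.25 to 4.2 CPM in KO-labelled livers and 5.67 to 7.27 CPM in WT. Of these, 0 were called in dHep and 3 fell in the KO-labelled livers. The 1 erythroid marker tested rose in the KO-labelled livers and was not called in dHep. Of 9 hepatocyte markers tested, 5 rose in dHep and 2 in the KO-labelled livers. The part of these cell-type differences in the ribosomal protein values was not tested.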

How the data were processed

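Poly(A) RNA of 9 livers was sequenced with a stranded protocol. Per the submitters' processing notes, reads were checked with FastQC and aligned with HISAT2 2.1.0 to mm10. The authors deposited unnormalized read counts, made with featureCounts 1.6.2 at strand setting 2 per the file headers, and each gene's length (unit other, in bases). Genes were kept by filterByExpr of edgeR 4.0.16 in R 4.3.3 (minimum count 10, minimum total 15), and 13141 of 23337 entered 1 quasi-likelihood fit with 1 mean per group and TMM scaling. The threshold was a Benjamini-Hochberg adjusted p of 0.05 over these genes, and "called", "rose" and "fell" mean past it. The SE is the log2 fold change divided by the square root of F. Exact permutation of 3 against 3 cannot go below a two-sided p of 0.1. The labels name mice but no batch or litter, and nothing more on the replicates, so p-values measure the spread between these samples.

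The members and lists were chosen with earlier results of these data known. Named genes were up to 4 called members per direction, comparison and subunit with the smallest p, the 3 highest and 3 lowest by mean TPM, the 2 largest and 2 smallest differences, 15 members chosen by role, paralogs, genes outside the symbol rule, and from each list at most 2 called genes that rose and 2 that fell (a subset of these is printed, and some genes are counted but not reported here by name). Alternatives were other scalings (median of ratios, library totals, TMM without the members), DESeq2 1.42.0, limma voom 3.58.1, other filters, the 2 compared groups alone, a block for the replicate number, and libraries left out. Removing trends of length and GC content (lowess, span 0.3, 3 iterations, fitted on the other genes) was added after seeing the data. Shared 50-base stretches and GC content come from GENCODE transcripts, and promoters from RefSeq.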

Additional observations from a re-analysis of the deposited data

Results flagged for a closer look

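Rplp0 differed between the KO-labelled and dHep livers by the test of that difference itself, by -0.97 ± 0.10 on the log2 scale (SE; edgeR adjusted p = 0.000898), while its change against WT was -0.32 in KO-labelled livers and 0.65 in dHep. Its values were 134, 149.8 and 131 CPM in KO-labelled livers and 245, 283 and 284 CPM in dHep, in 3 of 3 libraries lower. Groups of 3 are too small for a test of single outlying libraries, and no other member passed this test of the difference.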

How the results depend on the processing

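With library totals alone the median of all genes was -0.15 in dHep against WT and -0.20 in KO-labelled livers. Of the genes called, 27.6% and 28.8% were then higher, where TMM gave 50.9% and 48.7%. The medians of large- and small-subunit genes moved to 0.41 and 0.54 in dHep, and 0.46 and 0.59 in KO-labelled livers. Removing the length trend gave 22 large- and 20 small-subunit genes called in dHep (medians 0.26 and 0.34) and 21 and 16 in KO-labelled livers (0.20 and 0.27). Removing length and GC trends gave 18 and 17 in dHep (0.24 and 0.32) and 21 and 14 in KO-labelled livers (0.21 and 0.16), and removing GC alone moved the small-subunit median in KO-labelled livers to 0.66. Over all genes, removing the length trend gave 3082 called in dHep and 5248 in KO-labelled livers. Removing length and GC trends gave 2830 and 4776. The causes were not tested. In KO-labelled livers minus dHep the large-subunit median was -0.026 without the length trend and -0.041 without length and GC trends.

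Values turned negative against WT in dHep, without the length trend and then without length and GC trends, for Rpl36al (-0.17 and -0.14), Rpl39 (-0.20 and -0.13) and Rps19 (-0.024 and -0.26), and under 1 of these for Rps27l (-0.055, length) and Rpl41 (-0.11, both). In KO-labelled livers they did so for Rpl10 (-0.055 and -0.027), Rpl22l1 (-0.23 and -0.0082), Rpl32 (-0.16 and -0.14), Rpl39 (-0.37 and -0.26), Rpl7 (-0.14 and -0.099), Rps19 (-0.072 and -0.48), Rps4x (-0.18 and -0.040) and Rps27l (-0.16, length). Of these negative values only Rpl39 (both) and Rps19 (length and GC) in KO-labelled livers passed. Rpl5 had -0.015 there with library totals alone.

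Leaving out each replicate in turn gave 1359 to 4025 genes called in dHep against WT, where the full data gave 3192. The lowest counts came without WT replicates 1 (1952), 2 (1438) and 3 (1359). The large-subunit median was 0.48 to 0.62, lowest without dHep replicate 3. For KO-labelled livers minus dHep, 386 to 2809 genes were called in place of 1264, with 1 to 14 large-subunit and 0 to 4 small-subunit genes. In that comparison DESeq2 called 2068 genes and 4 large-subunit genes, limma voom 802 genes, the 2 groups alone 342, and the fit without dHep replicate 2 and WT replicate 1 495. Of named genes, 23 of 58 called in dHep, 29 of 60 in KO-labelled livers and 7 of 13 in KO-labelled livers minus dHep passed under all 22 alternatives. Deviations of same-numbered libraries had correlations of -0.15 to 0.06, so no strong pairing by replicate number was seen. Groups of 3 cannot exclude a weak pairing by this number. With the number as a block, 37 large- and 29 small-subunit genes were called in dHep, and 40 and 30 in KO-labelled livers. In KO-labelled livers minus dHep 1 and 0 were called. Over all genes that fit called 2781, 5292 and 954 in these comparisons.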

Other observations

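Start-site sequence was set beside the differences for the 57 tested members with a RefSeq promoter. Members with a C or T run of at least 8 bases had a median log2 fold change of 0.61 in dHep against WT (26 genes), and those without had 0.63 (31 genes). In the KO-labelled livers against WT the medians were 0.65 and 0.72. Spearman's rho with the length of the run was 0.25 in dHep and 0.10 in KO-labelled livers, as descriptions across genes that share libraries. Members whose promoter holds CCGGAAG had medians of 0.62 in dHep and 0.72 in KO-labelled livers, and those without it 0.64 and 0.62.

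The tested members are spread over the genome, with 14 of the 76 on chromosome 7. That 68 of 76 members were called higher in both comparisons with WT is a count over comparisons that share the WT libraries. Of all genes 12.4% were called higher in dHep and 20.9% in KO-labelled livers, and the share called higher in both was not computed.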
